A study of Mus musculus with 24 samples.

Results

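The genes described here are 10 genes of retinoid, aldehyde and alcohol oxidation in mouse liver: the retinol carrier Rbp4, the alcohol dehydrogenases Adh1 and Adh4, the retinol dehydrogenases Rdh7 and Rdh16, the retinal dehydrogenase Aldh1a1 with its close relative Aldh1a7, the aldehyde oxidases Aox1 and Aox3, and the retinoic acid hydroxylase Cyp26a1. They were taken by gene symbol, as genes of these oxidation steps and with earlier results of these data known, from a count table of 54532 genes, and all 10 were among the 15090 genes that passed the filter on low counts. The tested livers came from mice without the PAR bZip transcription factors (Hlf-/-, Dbp-/- and Tef-/-, here KO), and the comparison livers from mice with intact copies of all 3 genes (Hlf+/+, Dbp+/+ and Tef+/+, here WT). Mice of both genotypes were 12 to 16 weeks old and fed ad libitum, and livers were taken at zeitgeber times ZT04, ZT08, ZT12, ZT16, ZT20 and ZT24, where ZT counts hours from lights on. Each genotype had 2 libraries at each time, 12 in all, so that the series held 24 libraries. The deletion is carried by the whole animal as far as the labels say, and the labels give neither the sex nor whether each library stands for its own animal.

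Retinol, the alcohol form of vitamin A, leaves the liver bound to the carrier protein that Rbp4 encodes. Inside cells, alcohol and retinol dehydrogenases oxidise retinol to retinal, retinal dehydrogenases oxidise retinal to retinoic acid, the ligand of the nuclear receptors RAR and RXR, and the P450 enzyme CYP26A1 hydroxylates retinoic acid and so starts its removal. The same dehydrogenases also take ethanol and other alcohols and aldehydes, and aldehyde oxidases, which need a molybdenum cofactor, oxidise aldehydes and many nitrogen-containing drugs. PAR bZip factors bind D-box sequences and are known as clock-driven activators of detoxification genes in liver.

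Depth and the deleted genes were examined first. Libraries held 14613001 to 19288322 counts. Levels are given as CPM, counts scaled to a common library size with TMM. Fold values are ratios of mean CPM, and log2 changes come from the edgeR fits. Dbp averaged 0.0199 CPM in KO and 15.4 CPM in WT, Hlf averaged 1.55 CPM in KO and 72.7 CPM in WT, and Tef averaged 14.7 CPM in KO and 185 CPM in WT. In the library names replicate 1 has an I and replicate 2 a P, with no meaning stated, and the names set I and set P are used here. The 6 WT libraries of set I stood apart: across genes, their deviation from the median library rose with GC content (r 0.211 to 0.648), against mean r of −0.05 in KO set I, −0.23 in KO set P and −0.06 in WT set P. Their GC trend was strongest at ZT04, ZT16 and ZT20, with r of 0.581, 0.609 and 0.648. Short transcripts also counted more in the WT libraries of set I (r with log2 length −0.274 to −0.087). The values of single sets are therefore given beside the changes of the 10 genes, and those of set P beside several related genes. Hepatocyte markers were present in all libraries, and their 8 genes summed to 46503 to 72467 CPM in KO and 72296 to 101280 CPM in WT, with 5 of 8 lower in KO by edgeR (Alb, Apoa1, Hnf4a, Tat and Ttr). Of 7 Kupffer cell markers 3 were higher in KO (summed level 404 to 617 CPM in KO, 374 to 738 CPM in WT), and of 6 markers of sinusoidal endothelium 2 were higher (418 to 590 CPM in KO, 299 to 474 CPM in WT). Of 16 stellate cell markers 1 was higher and 3 lower in KO (511 to 680 CPM in KO, 480 to 639 CPM in WT), and of 5 cholangiocyte markers 1 was higher and 1 lower (28.2 to 76.6 CPM in KO, 18.7 to 64.3 CPM in WT). Among markers of hepatocyte zones, 2 of 7 pericentral genes were higher and 2 lower in KO (10136 to 15292 CPM in KO, 9505 to 18856 CPM in WT), and 2 of 6 periportal genes were lower (3887 to 6161 CPM in KO, 4235 to 9646 CPM in WT). Beside these counts, 12.1% of all genes tested were higher and 21.1% lower in KO by the same test. No marker gene was at 0 over all libraries, and the part of the marker differences in the results was not tested. In whole liver, fewer cells of a type and less RNA per cell cannot be told apart.

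Averaged over the 6 times, 8 of the 10 genes passed the edgeR test at an adjusted p under 0.05. Aox3, Aox1 and Adh4 were higher in KO, and Cyp26a1, Aldh1a1, Adh1, Rbp4 and Rdh7 were lower. Over all genes tested 33.2% passed, 12.1% higher and 21.1% lower in KO, so that passing was itself common in this comparison. The median log2 change was −0.23 over the 10 genes and −0.02 over all genes tested, and in set P alone −0.11 over the 10 genes and 0.00084 over all genes. The changes differed in sign within the alcohol dehydrogenases, and the plot of the averaged changes shows them on both sides of 0.

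**Figure D1:**
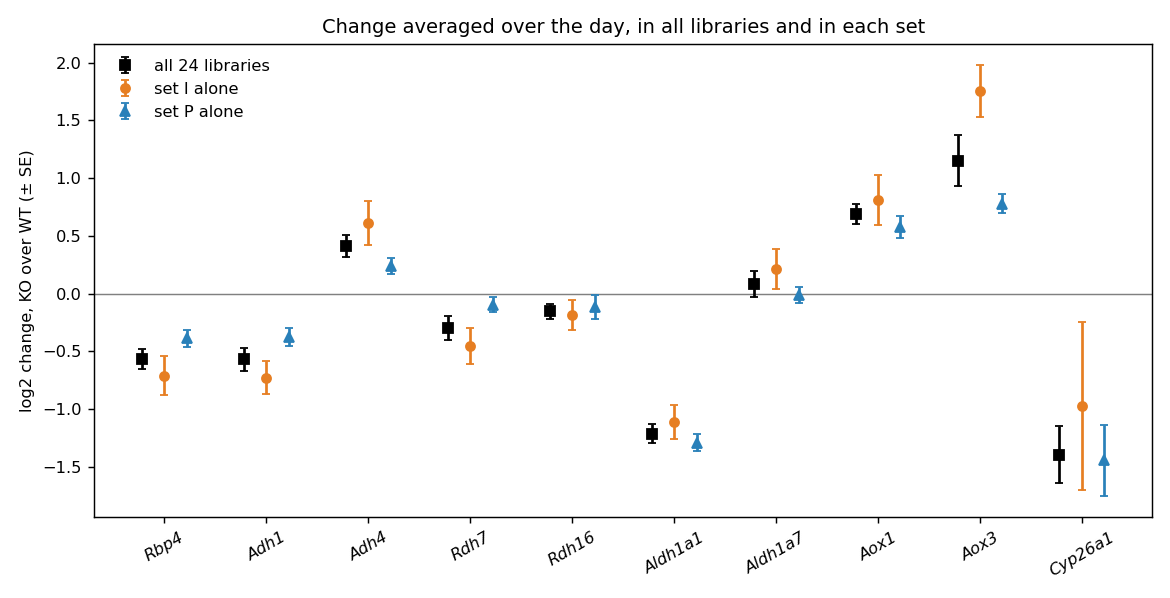
The log2 change of KO over WT averaged over the day (y axis, ± SE) is plotted for each gene in all 24 libraries, in the 12 libraries of set I and in the 12 of set P. Aldh1a1 (−1.21 in all libraries) and Aox3 (1.15) lie far from 0 in both sets, whereas Rdh7 lies at −0.46 in set I and −0.10 in set P.

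Levels can be set beside each other only per transcript length. On the scale of CPM per kilobase of the longest annotated transcript, Rbp4 was the most abundant of the 10 in both genotypes, with 1790 ± 196 in KO and 2674 ± 647 in WT (SD, n = 12 each). Rdh7 followed in both, with 688 ± 52.0 in KO and 857 ± 226 in WT. The third place was held by Adh1 (469 ± 39.0 in KO and 706 ± 187 in WT), whose range overlapped that of Rdh7 in WT but not in KO. The next places were exchanged between genotypes. Aox3 came before Aldh1a1 in KO (426 ± 74.0 and 300 ± 51.7 CPM per kilobase, with overlapping ranges), whereas in WT Aldh1a1 came before Aox3 (688 ± 98.2 and 193 ± 80.7, with ranges that did not overlap). Aldh1a7 was the sixth and Adh4 the seventh in both genotypes, with overlapping ranges (127 ± 19.2 and 124 ± 34.0 in KO, 119 ± 23.8 and 95.5 ± 32.8 in WT). Rdh16 (40.7 ± 5.40 in KO and 45.8 ± 9.50 in WT) and Aox1 (32.6 ± 3.32 in KO and 20.7 ± 5.09 in WT) came next. Cyp26a1 was the scarcest on average, with 3.33 ± 1.46 in KO and 10.9 ± 12.0 in WT. In WT its range overlapped that of Aox1, and at ZT20 of set I it reached 45.9, against 16.7 for Aox1.

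**Figure D2:**
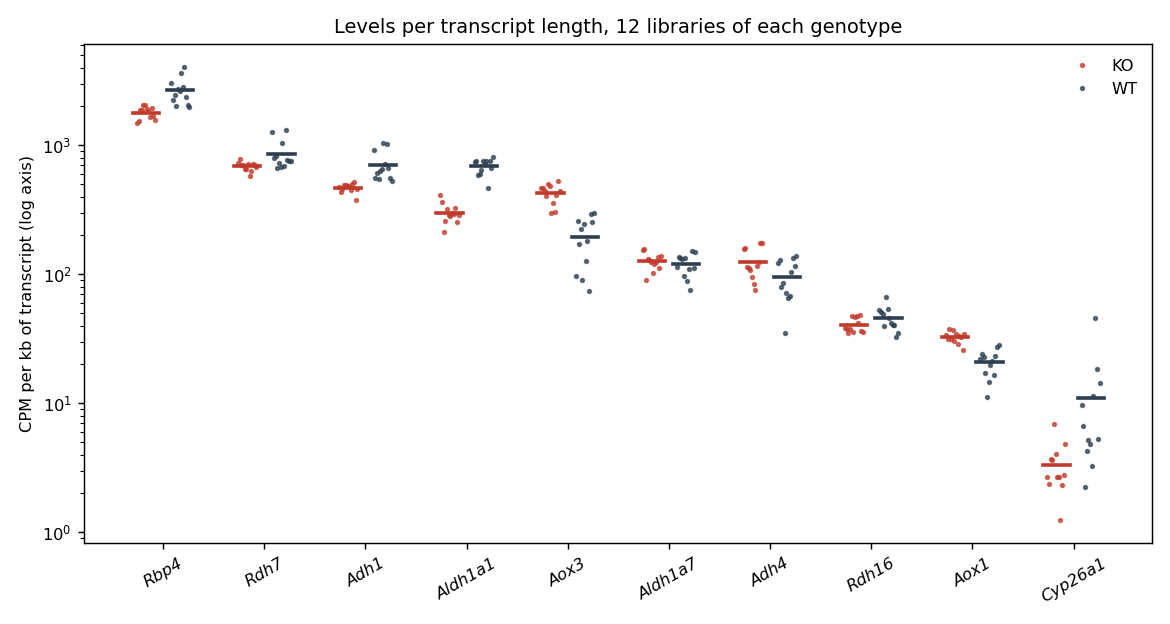
CPM per kilobase of transcript (y axis, log scale) is shown for each of the 12 KO and 12 WT libraries (points) with the mean (bar), genes in the order of the WT mean. Rbp4 was at 1790 in KO and 2674 in WT on average and Cyp26a1 at 3.33 and 10.9, and Aldh1a1 and Aox3 change places between the genotypes.

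**Figure D3:**
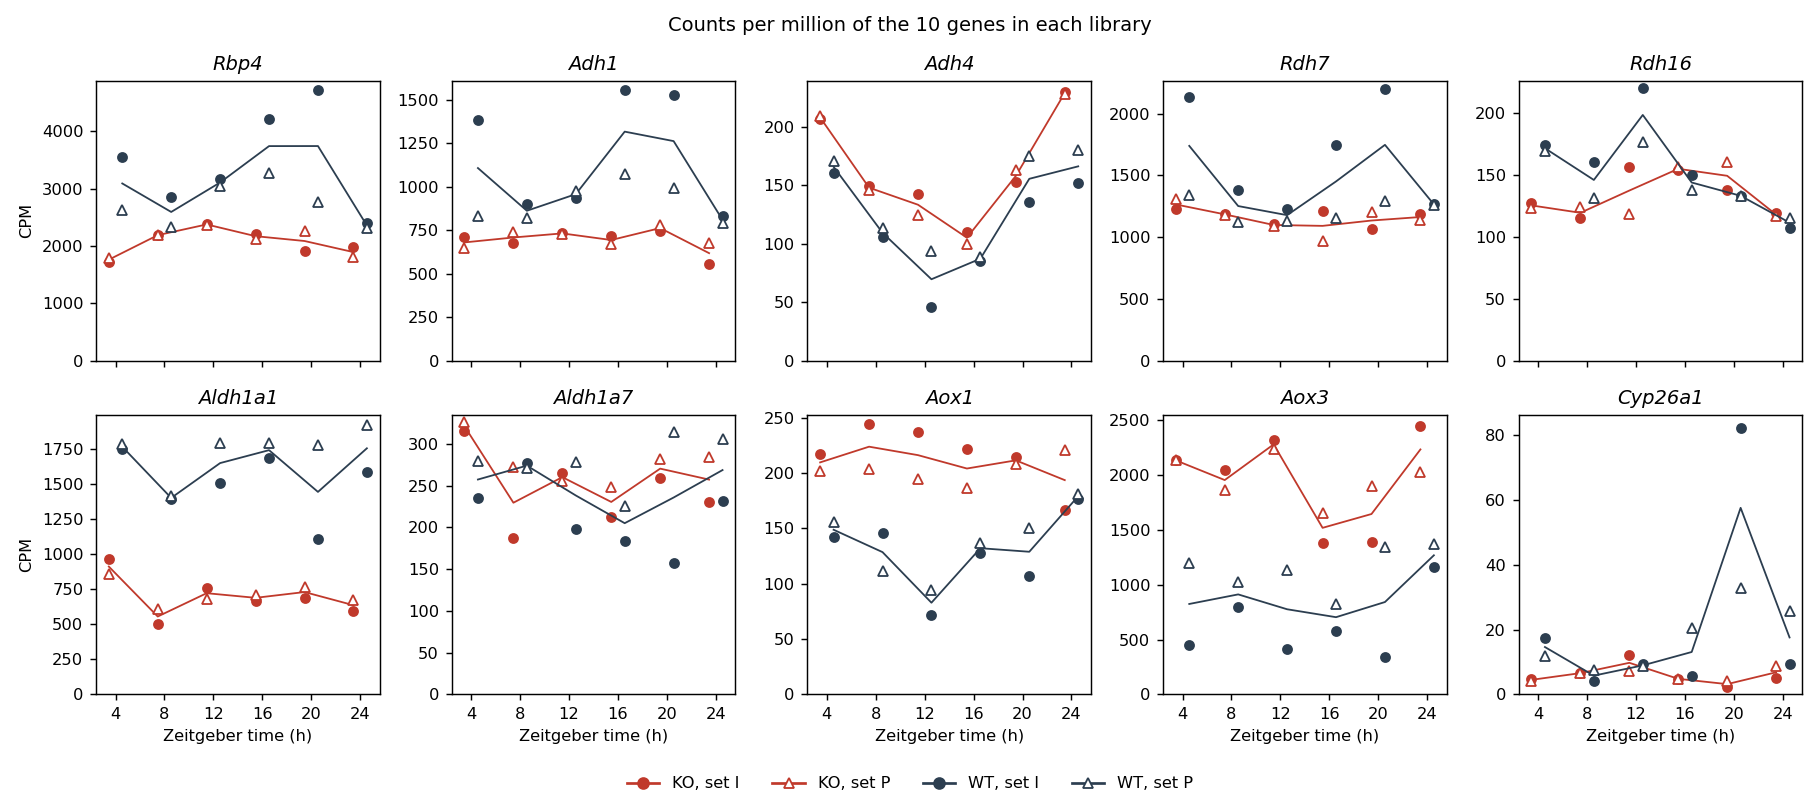
CPM (y axis, from 0) is shown against zeitgeber time in each library, with KO shifted to the left of WT, filled circles for set I, open triangles for set P and lines through the means of 2 libraries. KO points of Aldh1a1 and Adh1 lie below all WT points and those of Aox3 above, Adh4 falls and returns over the day in both genotypes, and the WT peak of Cyp26a1 at ZT20 (82.2 and 32.9 CPM) has no counterpart in KO (2.21 and 4.18 CPM).

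Rbp4 was lower in KO. This gene (ENSMUSG00000024990, mm10 chromosome 19, 38116629 to 38125281, minus strand) makes the plasma carrier of retinol, chiefly in hepatocytes. Its KO libraries ran from 1728 to 2382 CPM with a median of 2154, and its WT libraries from 2312 to 4725 CPM with a median of 2947. Of the 12 KO libraries 10 lay below the lowest WT library. Means were 2078 ± 228 CPM in KO and 3104 ± 751 CPM in WT (SD, n = 12 each), a log2 change of −0.56 (SE 0.09, edgeR adjusted p = 0.000498). At each of the 6 times both KO libraries were below both WT libraries. The share of all genes tested that were separated in this way at single times was not counted, here or for the genes below. Set I held the highest WT values, and at ZT20 WT Rbp4 was at 4725 CPM in set I and 2757 CPM in set P, against 1908 and 2262 CPM in KO. The change passed in both sets (−0.71 in set I, edgeR adjusted p = 0.0285, and −0.39 in set P, edgeR adjusted p = 0.00867). With the replicate number as a block and a GC and length slope for each library it was −0.29 (edgeR adjusted p = 0.0019).

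Adh1 was lower in KO as well. It encodes the main cytosolic alcohol dehydrogenase of liver, which acts on ethanol and retinol (ENSMUSG00000074207, chromosome 3, 138260991 to 138290698, plus strand). In KO it ran from 558 to 781 CPM (median 715) and in WT libraries from 790 to 1559 CPM (median 958). All 12 KO libraries lay below all 12 WT libraries, as for 0.921% of genes tested. The means were 699 ± 58.1 CPM in KO and 1053 ± 279 CPM in WT (SD, n = 12 each), with a log2 change of −0.57 (SE 0.10, edgeR adjusted p = 0.000799). WT set I libraries at ZT04, ZT16 and ZT20 were the highest, at 1383, 1559 and 1530 CPM, against 833, 1076 and 996 CPM in WT set P at the same times. These are also the WT set I libraries with the strongest GC trend, and the part of that trend was not tested. In set P alone the change was −0.37 (edgeR adjusted p = 0.00899), smaller than with all libraries by more than 1.5 times, and in set I alone −0.73 (edgeR adjusted p = 0.0254).

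Adh4, its neighbour on the same chromosome (ENSMUSG00000037797, chromosome 3, 138415466 to 138430892, plus strand), went the other way. It encodes a liver alcohol dehydrogenase that also takes retinol and longer alcohols. Its coding sequence matched that of Adh1 at 67.3% of aligned bases. Its level ran from 99.9 to 229.8 CPM in KO (median 151) and in WT from 45.8 to 180 CPM (median 125). The ranges overlapped, since the gene varied widely over the day in both genotypes, but at 5 of 6 times both KO libraries were above both WT libraries. The averaged log2 change was 0.41 (SE 0.09, edgeR adjusted p = 0.00617), with means of 163 ± 44.7 CPM in KO and 126 ± 43.1 CPM in WT (SD, n = 12 each). It was 0.61 in set I (edgeR adjusted p = 0.04) and 0.24 in set P (edgeR adjusted p = 0.0488).

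Adh4 was the one gene of the 10 with a rhythm called in both genotypes. In KO the mean was highest at ZT24 with 229 CPM and lowest at ZT16 with 105 CPM. In WT it was also highest at ZT24, with 166 CPM, and lowest at ZT12 with 69.5 CPM. A cosine of 24 h passed in KO (amplitude 0.50 on the log2 scale, peak 2.03 h after lights on, edgeR adjusted p = 0.00841) and in WT (amplitude 0.67, peak 0.68 h after lights on, edgeR adjusted p = 0.000539). The amplitude is how far the curve rises over its mean, and the difference between the rhythms did not pass (edgeR adjusted p = 0.982). At ZT12, where Adh4 had 142 and 124 CPM in KO and 45.8 and 93.3 CPM in WT, the log2 change was 0.94 (edgeR adjusted p = 0.057), and it passed with the replicate number as a block (0.97, edgeR adjusted p = 0.0319).

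The promoter window of Adh4 is shown because it held the most matches to the motifs searched among the 10 genes. It covers 250 bases before and 50 after the RefSeq start (GRCm38.p6, chr3:138415247-138415546, plus strand), and capitals mark the nuclear receptor half-site AGGTCA, which begins 133 and 11 bases before the start.
Adh4: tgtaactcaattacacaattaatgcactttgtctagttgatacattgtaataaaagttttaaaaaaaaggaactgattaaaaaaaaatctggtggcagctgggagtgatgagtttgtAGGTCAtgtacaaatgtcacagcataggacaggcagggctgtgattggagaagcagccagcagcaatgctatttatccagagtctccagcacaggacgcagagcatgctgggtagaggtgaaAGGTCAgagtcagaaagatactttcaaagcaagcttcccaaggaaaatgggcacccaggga
RefSeq gave 13 such windows of 300 bases for the 10 genes. The half-site was found on either strand in 3 of them, those of Adh4, Rdh7 and Rdh16, and in 16.3% of 32851 mouse promoter windows. The E-box CACGTG was in 1 window, of Adh1, and in 7.15% of all. The D-box core TTANGTAA was in 0 of the 13 windows and in 2.32% of all. None of the motifs contains another, and a match or its lack in these windows is a description only.

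Rdh7 and Rdh16 had smaller changes. Both are short-chain dehydrogenases of the endoplasmic reticulum that oxidise retinol and some steroids, they lie close together on chromosome 10, and their coding sequences matched at 87.8% of aligned bases. Rdh7 (ENSMUSG00000040134, 127884028 to 127888817, minus strand) ran from 970.1 to 1304 CPM in KO (median 1184) and from 1124 to 2201 CPM in WT (median 1280.0). Most KO and WT values overlapped, with 4 of 12 KO libraries below the lowest WT library. The means were 1155 ± 87.2 CPM in KO and 1438 ± 379 CPM in WT (SD, n = 12 each), and the log2 change of −0.30 (SE 0.10) passed narrowly (edgeR adjusted p = 0.0403). It no longer passed when any of 18 libraries was left out singly (edgeR adjusted p up to 0.0913), in set P alone (−0.10, edgeR adjusted p = 0.34), in set I alone (−0.46, edgeR adjusted p = 0.0516) and without the 6 WT libraries of set I (−0.07, edgeR adjusted p = 0.444). WT set I held 2135, 1744 and 2201 CPM at ZT04, ZT16 and ZT20, the times of its strongest GC trend, against 1340, 1156 and 1291 CPM in WT set P.

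Rdh16 (ENSMUSG00000069456, chromosome 10, 127801152 to 127846565, plus strand) did not pass. It ran from 115 to 160 CPM in KO (median 125) and from 107 to 220 CPM in WT (median 144). The log2 change was −0.15 (SE 0.06, edgeR adjusted p = 0.0726), with means of 134 ± 17.7 CPM in KO and 150 ± 31.2 CPM in WT (SD, n = 12 each). It was −0.18 in set I (edgeR adjusted p = 0.284) and −0.11 in set P (edgeR adjusted p = 0.507). With the replicate number as a block it passed (−0.15, edgeR adjusted p = 0.0464), and with the block and a GC and length slope it was −0.45 (edgeR adjusted p = 0.00424). Both KO libraries were below both WT libraries at ZT04, ZT08 and ZT12 and above them at ZT16, ZT20 and ZT24. How many of all genes did the same was not counted. With the block and the GC and length slope the log2 change was −0.39 at ZT16, −0.51 at ZT20 and 0.04 at ZT24. At ZT12 the values were 156 and 118 CPM in KO and 220 and 176 CPM in WT, and at ZT20 they were 138 and 160 CPM in KO and 133 and 133 CPM in WT. The fitted curve peaked 16.6 h after lights on in KO and 10.3 h in WT, but neither rhythm passed (edgeR adjusted p = 0.4 in KO and 0.0693 in WT), nor did their difference (unadjusted p = 0.0171, edgeR adjusted p = 0.844) or the interaction of genotype and time (unadjusted p = 0.0187, edgeR adjusted p = 0.652). The WT rhythm of Rdh16 passed by DESeq2 (adjusted p = 0.0219) and without WT ZT04 replicate 1, WT ZT04 replicate 2 or WT ZT08 replicate 2 (lowest edgeR adjusted p = 0.0164). It did not pass with the block and the slope (edgeR adjusted p = 0.683) or with no filter on low counts (edgeR adjusted p = 0.349). Of all 50-base windows of the longest transcripts, 15.9% of Rdh16 and 13.2% of Rdh7 recur in other annotated genes, most often Rdh18-ps, so their counts carry some uncertainty.

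Aldh1a1 was lower in KO at every time of day. Its product oxidises retinal to retinoic acid and also clears other aldehydes (ENSMUSG00000053279, chromosome 19, 20492715 to 20643465, plus strand). KO libraries ran from 499 to 963 CPM (median 685) and WT libraries from 1109 to 1918 CPM (median 1716). All 12 KO libraries lay below all 12 WT libraries. Means were 706 ± 122 CPM in KO and 1623 ± 231 CPM in WT (SD, n = 12 each), 2.30-fold lower in KO (log2 change −1.21, SE 0.08, edgeR adjusted p = 7.33e-08). The smallest difference was at ZT04, with 963 and 857 CPM in KO and 1746 and 1779 CPM in WT (log2 change −0.95). At ZT24 it was largest, with 596 and 675 CPM in KO and 1585 and 1918 CPM in WT (log2 change −1.46). The averaged change was −1.11 in set I (edgeR adjusted p = 0.0114) and −1.29 in set P (edgeR adjusted p = 1.67e-06). No rhythm passed in either genotype (edgeR adjusted p = 1 in KO and 0.962 in WT).

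Aldh1a7 did not pass. It is a rodent copy of Aldh1a1 that lies beside it (ENSMUSG00000024747, chromosome 19, 20692953 to 20727562, minus strand), and the coding sequences, 1503 bases each, matched at 91.9% of aligned bases. The KO range was 187 to 326 CPM (median 262) and the WT range 157 to 315 CPM (median 253), so that the genotypes overlapped over most of their range. The means were 262 ± 39.7 CPM in KO and 247 ± 49.3 CPM in WT (SD, n = 12 each), with a log2 change of 0.08 (SE 0.11, edgeR adjusted p = 0.555). Its sign was negative in set P (−0.01, edgeR adjusted p = 0.939), without the 6 WT libraries of set I (−0.09, edgeR adjusted p = 0.455) and with the block and the GC and length slope (−0.09, edgeR adjusted p = 0.33). Within a library, the ratio of Aldh1a1 to Aldh1a7 in CPM per kilobase ran from 1.97 to 2.75 in KO (median 2.33) and from 4.39 to 8.01 in WT (median 5.81), without overlap. Windows of 50 bases shared between both transcripts made up 6.54% of Aldh1a1 and 7.49% of Aldh1a7, where a read of that length could not be assigned to 1 gene.

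The promoter windows of this pair are shown because the neighbours are alike there as well while their changes differ. The Aldh1a1 window is that of the RefSeq start nearer the coding sequence (GRCm38.p6, chr19:20601718-20602017, plus strand), and the Aldh1a7 window lies at chr19:20727507-20727806 on the minus strand. Capitals mark bases that are identical in a global alignment of both, 208 of 225 aligned bases, or 92.4%, with gaps left out.
Aldh1a1: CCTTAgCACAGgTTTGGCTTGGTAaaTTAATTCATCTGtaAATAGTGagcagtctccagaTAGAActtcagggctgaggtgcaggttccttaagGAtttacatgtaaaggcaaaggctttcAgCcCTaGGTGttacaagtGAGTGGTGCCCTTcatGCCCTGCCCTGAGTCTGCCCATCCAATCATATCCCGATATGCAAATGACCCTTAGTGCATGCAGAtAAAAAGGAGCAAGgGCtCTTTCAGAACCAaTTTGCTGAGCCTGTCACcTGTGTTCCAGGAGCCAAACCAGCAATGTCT
Aldh1a7: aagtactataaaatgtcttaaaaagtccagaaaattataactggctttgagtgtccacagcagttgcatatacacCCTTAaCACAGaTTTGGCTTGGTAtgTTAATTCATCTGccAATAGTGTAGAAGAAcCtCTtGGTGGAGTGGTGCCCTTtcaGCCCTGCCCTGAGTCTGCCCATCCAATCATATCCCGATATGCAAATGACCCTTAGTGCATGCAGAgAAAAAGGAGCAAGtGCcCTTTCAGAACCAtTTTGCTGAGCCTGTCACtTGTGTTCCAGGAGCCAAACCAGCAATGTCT
The start lies 50 bases before the end of each sequence, and the last part of both windows runs almost unbroken in capitals. The Aldh1a1 window also holds a stretch in lower case with no aligned counterpart. RefSeq lists a further Aldh1a1 start far upstream, and the counts per gene do not separate the starts.

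Both aldehyde oxidase genes were higher in KO. Aox3 encodes the chief aldehyde oxidase of mouse liver (ENSMUSG00000064294, chromosome 1, 58113130 to 58200698, plus strand). KO libraries ran from 1379 to 2442 CPM (median 2035) and WT libraries from 339 to 1373 CPM (median 928). All 12 KO libraries lay above all 12 WT libraries, as for 0.596% of genes tested, although the gap was narrow, at 1379 CPM in the lowest KO library and 1373 CPM in the highest WT library. Means were 1960 ± 341 CPM in KO and 888 ± 372 CPM in WT (SD, n = 12 each), 2.21-fold higher in KO (log2 change 1.15, SE 0.22, edgeR adjusted p = 0.00212). WT libraries split by set, at 339 to 1164 CPM in set I and 827 to 1373 CPM in set P. The change was accordingly 1.75 in set I (edgeR adjusted p = 0.00985) and 0.78 in set P (edgeR adjusted p = 0.000179), and it passed in both. With the block and the GC and length slope it was 1.02 (edgeR adjusted p = 0.000121).

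Aox1, just upstream on the same strand (ENSMUSG00000063558, chromosome 1, 58029931 to 58106413), rose with it. Its product is the aldehyde oxidase with the wider tissue range, and the coding sequences of the pair matched at 69.8% of aligned bases. The KO range was 166 to 244 CPM (median 211) and the WT range 71.8 to 181 CPM (median 139). Of the 12 KO libraries 11 lay above the highest WT library, the exception being ZT24 of set I at 166 CPM. Means were 210 ± 21.3 CPM in KO and 133 ± 32.7 CPM in WT (SD, n = 12 each), 1.57-fold higher in KO (log2 change 0.69, SE 0.08, edgeR adjusted p = 4.64e-05). The change was 0.81 in set I (edgeR adjusted p = 0.0308), 0.58 in set P (edgeR adjusted p = 0.00372), and 0.37 with the block and the GC and length slope (edgeR adjusted p = 0.00505). In CPM per kilobase Aox3 exceeded Aox1 in every library, by a ratio of 8.69 to 20.5 in KO and 4.42 to 16.9 in WT.

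At single times the log2 change of Aox1 lay between 0.11 and 1.38, although the interaction of genotype and time did not pass (unadjusted p = 0.015, edgeR adjusted p = 0.631). With the block and the GC and length slope the change was 0.05, 0.72, 1.25, 0.09, 0.05 and 0.07 from ZT04 to ZT24. Group means ran from 194 CPM at ZT24 to 224 CPM at ZT08 in KO, and from 82.9 CPM at ZT12 to 179 CPM at ZT24 in WT. At ZT12 the libraries had 237 and 195 CPM in KO and 71.8 and 94.0 CPM in WT, a log2 change of 1.38 (SE 0.21, edgeR adjusted p = 0.00228). At ZT24 they had 166 and 221 CPM in KO and 177 and 181 CPM in WT, which overlapped. The cosine passed in WT (amplitude 0.39, peak 0.40 h after lights on, edgeR adjusted p = 0.0246) and not in KO (amplitude 0.07, edgeR adjusted p = 1), but the difference between the rhythms did not pass (unadjusted p = 0.00862, edgeR adjusted p = 0.767). The WT rhythm was lost without any of 4 single libraries, both of WT ZT12 and both of WT ZT24 (edgeR adjusted p up to 0.113). It also did not pass with no filter on low counts (edgeR adjusted p = 0.0754). In set I alone it did not pass either (amplitude 0.39, edgeR adjusted p = 0.532), but there 0 of all 13590 genes tested had a rhythm called in either genotype. The ZT12 call no longer passed without WT ZT12 replicate 1, where the remaining WT library had 94.0 CPM, and fewer of all genes passed at ZT12 then as well.

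Cyp26a1 was lower in KO averaged over the day and had the lowest mean level per kilobase among the 10 genes. Its transcript is known as a direct target of retinoic acid receptors (ENSMUSG00000024987, chromosome 19, 37697798 to 37701536, plus strand). KO libraries ran from 2.21 to 12.3 CPM (median 4.91), resting on 36 to 209 counts each, and WT libraries from 4.01 to 82.2 CPM (median 10.7), on 70 to 1334 counts. Ranges overlapped, with 1 of 12 KO libraries below the lowest WT library. Means were 5.96 ± 2.61 CPM in KO and 19.6 ± 21.5 CPM in WT (SD, n = 12 each). The ratio of these means, 3.29, leans on the highest WT libraries. Averaged over the times with equal weight, the log2 change was −1.39 (SE 0.25, edgeR adjusted p = 0.00105), a smaller difference than that ratio. The change passed in set P (−1.44, edgeR adjusted p = 0.0118) and not in set I (−0.97, SE 0.72, edgeR adjusted p = 0.298).

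By time of day, the values were as follows. At ZT04 Cyp26a1 had 4.79 and 4.24 CPM in KO and 17.4 and 11.8 CPM in WT. At ZT08 it had 6.66 and 6.52 CPM in KO and 4.01 and 7.62 CPM in WT, and at ZT12 it had 12.3 and 7.29 CPM in KO and 9.27 and 8.67 CPM in WT, so that the genotypes overlapped through the later light hours. At ZT16 the values were 4.83 and 4.83 CPM in KO and 5.83 and 20.4 CPM in WT. At ZT20 they were 2.21 and 4.18 CPM in KO and 82.2 and 32.9 CPM in WT, 18.0-fold lower in KO (log2 change −4.17, SE 0.66, edgeR adjusted p = 0.00437). The WT library of set I, at 82.2 CPM, had the strongest GC trend (r 0.648). The part of that trend was not tested. With the block and the GC and length slope the ZT20 change was −3.94 (edgeR adjusted p = 0.00245). Without the 6 WT libraries of set I it was −3.38. At ZT24 the values were 4.98 and 8.70 CPM in KO and 9.49 and 25.7 CPM in WT. WT libraries of both sets were highest at ZT20, whereas the KO mean was lowest there.

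The cosine for Cyp26a1 passed in WT, with an amplitude of 1.37 on the log2 scale and a peak 20.98 h after lights on (edgeR adjusted p = 0.00745). In KO the amplitude was 0.42 with a peak 9.44 h after lights on (edgeR adjusted p = 0.819). Across the 10 genes this was the smallest p for a difference between the rhythms, but it did not pass (unadjusted p = 0.000748, edgeR adjusted p = 0.441), nor did the interaction of genotype and time (unadjusted p = 0.00202, edgeR adjusted p = 0.352). Both passed by DESeq2 (adjusted p = 0.0216 for the rhythm and 0.00231 for the interaction). The WT rhythm no longer passed without WT ZT20 replicate 1. The ZT20 call no longer passed without KO ZT20 replicate 1, where the remaining KO library had 4.18 CPM against 82.2 and 32.9 CPM in WT. Fewer of all genes passed at ZT20 as well without that KO library.

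Over all 10 genes, single times gave fewer calls than the average over the day. Each single time rested on 2 libraries per genotype, and the cause of the fewer calls was not tested. Aldh1a1 was called lower in KO at all 6 times, alone at ZT04, ZT08, ZT16 and ZT24. Aox1 joined it at ZT12, and Rbp4 and Cyp26a1 at ZT20. Thus 1, 1, 2, 1, 3 and 1 of the 10 genes passed from ZT04 to ZT24. Of all genes tested 1.26% passed at ZT04, 0.934% at ZT08, 1.85% at ZT12, 1.65% at ZT16, 3.93% at ZT20 and 0.676% at ZT24. With the replicate number as a block, 2 passed at ZT04, 3 at ZT12, 3 at ZT16 and 5 at ZT20. Of all genes 2.45%, 2.64%, 3.11% and 19% passed at these times in that fit. At ZT20 Aox1 (0.72, edgeR adjusted p = 0.0353) and Adh1 (−0.71, edgeR adjusted p = 0.041) were added. With the block and the GC and length slope, 2 passed at ZT20, Aldh1a1 and Cyp26a1, against 12.6% of all genes. The log2 change of Aox3 lay between 0.82 and 1.55 at the 6 times and both KO libraries were above both WT libraries at each, yet it passed at no single time (edgeR adjusted p 0.221 to 1). Its SE at a single time was 0.54 to 0.55, against 0.20 for Aldh1a1.

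Which single libraries these calls rested on differed by gene. The Aldh1a1 call at ZT04 (edgeR adjusted p = 0.0288) no longer passed when any of 16 libraries was left out singly (edgeR adjusted p up to 0.285). Those of Aldh1a1 at ZT08, ZT16 and ZT24 were lost without the KO replicate 1 of that time, and those at ZT12 and ZT20 without either KO library of that time. Leaving out a KO library of the time compared leaves 1 there, and at each time fewer of all genes then passed as well. The Rbp4 call at ZT20 (−0.84, edgeR adjusted p = 0.048) was lost without any of 6 libraries: KO ZT04 replicate 1, KO ZT20 replicates 1 and 2, WT ZT08 replicate 1, WT ZT20 replicate 1 and WT ZT24 replicate 2 (edgeR adjusted p up to 0.568). It was lost as well with the block and the GC and length slope (−0.31, edgeR adjusted p = 0.134). Without the 6 WT libraries of set I, which leaves 1 WT library at ZT20, the log2 change of Rbp4 was −0.41. Without WT ZT20 replicate 2, 8 of the 10 genes passed at ZT20, but so did 52% of all genes tested, against 3 genes and 3.93% with all libraries.

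**Figure D4:**
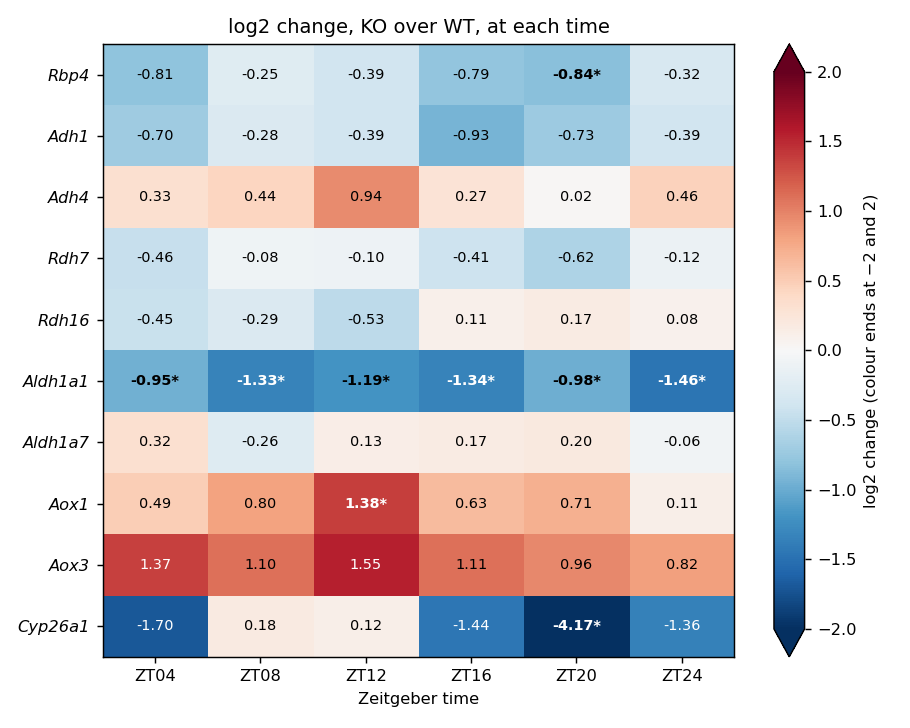
The log2 change of KO over WT is given for each gene (rows) at each zeitgeber time (columns), with asterisks at an edgeR adjusted p under 0.05 and red for higher in KO. Aldh1a1 is marked at all 6 times (−0.95 to −1.46), Aox1 at ZT12 (1.38), and Rbp4 (−0.84) and Cyp26a1 (−4.17) at ZT20.

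Rhythms were called in WT for Aox1, Adh4 and Cyp26a1, 3 of the 10 genes, against 8.67% of all genes tested. In KO the rhythm of Adh4 was called, 1 of the 10 genes, against 3.57% of all. A rhythm past the threshold in WT and not in KO is no difference by itself. Of the 10 genes 0 passed the edgeR test of the rhythm difference and 0 the interaction, as did 0% of all genes tested. At an unadjusted p under 0.05, 3 of the 10 genes passed each test, against 5.24% and 6.4% of all genes. By DESeq2 1 of the 10, Cyp26a1, passed each. Among genes with no call, the WT amplitude was 0.04 for Aldh1a1, 0.29 for Aox3 and 0.22 for Adh1.

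Other genes of retinoid handling went both ways. Of 35 listed genes, 23 were tested, of which 4 were higher and 6 lower in KO (median log2 change −0.12, 3 higher and 3 lower in set P alone). Of all genes tested 12.1% were higher and 21.1% lower, and in set P alone 977 were higher and 900 lower of 13598. Retsat, which saturates retinol, averaged 166 ± 30.8 CPM in KO and 358 ± 166 CPM in WT (SD, n = 12 each, log2 change −1.05, edgeR adjusted p = 0.000361), and changed by −0.77 in set P. Rdh9, a retinol dehydrogenase relative of Rdh7, was higher, at 16.4 ± 4.36 CPM in KO and 10.6 ± 3.23 CPM in WT (0.65, edgeR adjusted p = 0.000709, and 0.79 in set P). Aldh1a3, a retinal dehydrogenase scarce in liver, averaged 1.04 ± 0.485 CPM in KO and 0.29 ± 0.25 CPM in WT (1.99, edgeR adjusted p = 0.000721). Ttr, which binds RBP4 in plasma and was named after its values were seen, changed by −0.46 (edgeR adjusted p = 0.00599), or −0.23 in set P (edgeR adjusted p = 0.0427). The other CYP26 hydroxylases did not pass: Cyp26b1 had 8.45 ± 5.39 CPM in KO and 11.4 ± 8.98 CPM in WT, and Cyp26c1 was below 1 CPM in both.

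The receptors of retinoic acid were all tested, and 3 of 6 were lower in KO, with the other 3 not passing (median −0.23). Of all genes tested 21.1% were lower, and 33.2% passed in either direction. The 3 lower receptors were Rxrg (−0.56, edgeR adjusted p = 0.00745), Rxrb (−0.38, edgeR adjusted p = 0.0206) and Rarg (−0.21, edgeR adjusted p = 0.024). In set P alone their adjusted p by edgeR was 0.141, 0.11 and 0.232. Rxra, the most counted, averaged 535 ± 62.5 CPM in KO and 630 ± 156 CPM in WT and did not pass (edgeR adjusted p = 0.0902).

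Among 15 tested of 18 other aldehyde dehydrogenases, 2 were higher and 7 lower in KO (median −0.21), against 12.1% and 21.1% of all genes. Besides Aldh1a3, which is also on the retinoid list, these included the folate enzyme gene Aldh1l1 (1006 ± 150 CPM in KO and 1595 ± 492 CPM in WT, SD, n = 12 each, log2 change −0.65, edgeR adjusted p = 0.00105, and −0.39 in set P). Aldh16a1 changed by −0.47 (edgeR adjusted p = 0.00256) and Aldh2, the mitochondrial enzyme that clears acetaldehyde, by −0.44 (edgeR adjusted p = 0.0039). In set P alone 2 of these genes passed, Aldh1l1 and Aldh16a1, and Aldh2 was at −0.24 (edgeR adjusted p = 0.0581). Of 13 tested among 14 other alcohol and aldehyde reductases, Adhfe1 (0.32) and Adh6b (0.93) were higher and Akr1b3 (−0.67), Akr1c13 (−0.21) and Akr7a5 (−0.27) lower (median −0.07). In set P alone Adhfe1 passed (0.29, edgeR adjusted p = 0.0213), as did Akr1c14 (0.29, edgeR adjusted p = 0.0348), Adh6b was not tested there, and the 3 lower calls were lost (edgeR adjusted p 0.0699 to 0.125). Adh5, the class III alcohol dehydrogenase, had 386 ± 18.8 CPM in KO and 405 ± 59.5 CPM in WT and did not pass (edgeR adjusted p = 0.462).

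The molybdenum enzymes besides Aox1 and Aox3, with the genes that make their cofactor, held 9 tested of 11 listed. Of these 3 were lower and 0 higher in KO, while 21.1% of all genes tested were lower and 33.2% passed in either direction. Suox, sulfite oxidase, averaged 128 ± 21.7 CPM in KO and 210 ± 88.4 CPM in WT (SD, n = 12 each, −0.66, edgeR adjusted p = 0.00272). Marc1 (−0.49, edgeR adjusted p = 0.00725) and Marc2 (−0.50, edgeR adjusted p = 0.00356), which reduce amidoximes, were lower too, and these 3 were also the calls in set P, at −0.36 for Suox, −0.28 for Marc1 and −0.27 for Marc2. The other 6, among them the cofactor genes Mocs1, Mocs2, Mocs3, Mocos and Gphn and xanthine dehydrogenase Xdh, did not pass. The list median was −0.26, against 1.15 for Aox3 and 0.69 for Aox1. The further aldehyde oxidase genes Aox2 and Aox4 were under the filter on low counts.

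**Figure D5:**
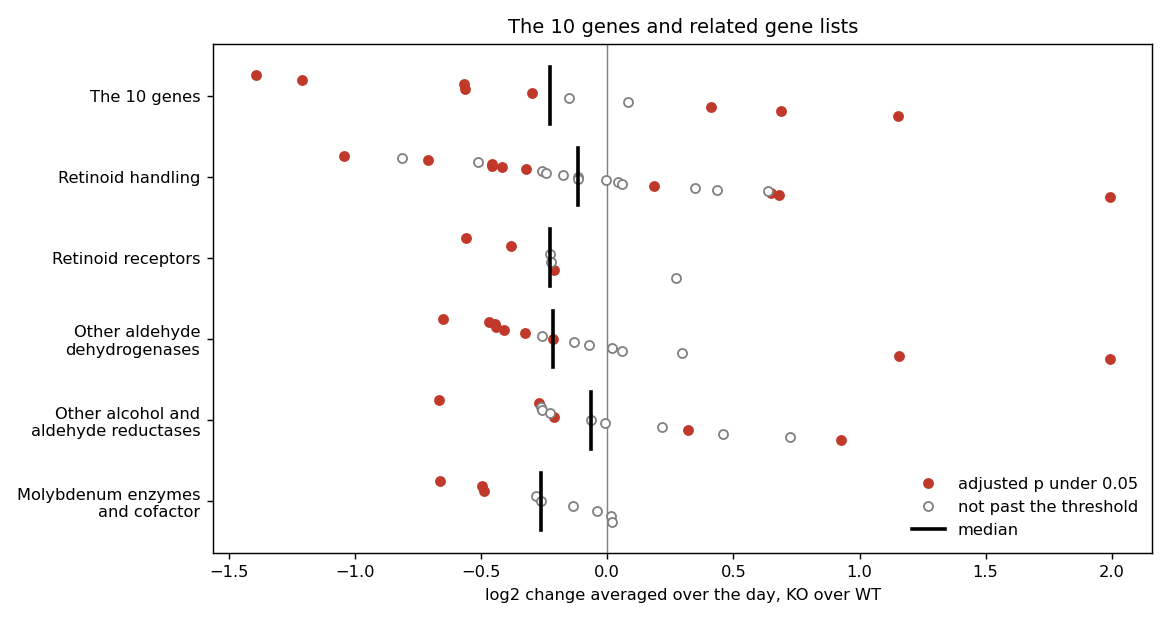
Each point is the log2 change of KO over WT (x axis) of a tested gene, averaged over the day, for the 10 genes and 5 related lists (rows). Filled points passed the edgeR test and bars mark medians, which lie between −0.26 (molybdenum enzymes and cofactor) and −0.07 (other alcohol and aldehyde reductases), whereas single genes of several lists lie above 0.5.

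Likeness of pattern was described over the 12 group means of log2 CPM, among 10659 other genes whose mean log2 CPM was 1 or more. These correlations are over means that share all 24 libraries, the genotype step and the GC trend of WT set I, and carry no test. Aldh1a1 was most like Cyp2c54 (Pearson r = 0.98), Rdh16 most like Cyp17a1 (0.93), Aox3 most like Igsf23 (0.96) and Cyp26a1 most like Smpd1 (0.93). Adh1 was most like Tex261 (0.99), Rbp4 like Acy1 (0.98), Rdh7 like Psmd2 (0.98), Adh4 like Raet1e (0.93), Aox1 like Svil (0.91) and Aldh1a7 like Rpp30 (0.87). Among the 10 genes themselves, Rbp4 and Adh1 were the most alike (0.96), Aox1 was nearest to Aox3 (0.87), and Adh1 and Aox3 ran most opposite (−0.91).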

How the data were processed

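Liver mRNA was sequenced from 12 KO and 12 WT libraries (libraries made with the TruSeq Stranded mRNA kit, which the protocols in the labels name). As deposited by the authors, values are raw whole-number counts by Ensembl gene ID, 1 column for each of the 24 libraries, and every column was used. The submitters' processing notes name STAR 2.4.0i and build mm10. Not given in the sources used here are the counter, its annotation and its strand setting, so how reads of overlapping, antisense or near-identical genes were assigned is not known. Of 54532 genes, 54409 matched a symbol in GENCODE M21 (mm10), the source of coordinates and of the longest transcript; promoter windows came from RefSeq (GRCm38.p6).

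Counts were tested with edgeR 4.0.16 (R 4.3.3) by quasi-likelihood F-test (TMM, filterByExpr by group at a minimum of 10 counts, 15090 genes), with Benjamini-Hochberg adjustment over all genes tested and calls at an adjusted p under 0.05. A fit of 12 group means gave the averaged change, that at each time and the interaction; a fit with a 24 h cosine and sine per genotype gave rhythms. Each set alone was fitted with genotype and time as terms. The fits were tested on simulated data. Alternatives were DESeq2 1.42.0 as scaling and as test, no filter, the replicate number as a block, alone and with a GC and length slope per library, each set alone, and each library left out. Leaving out the 6 WT libraries of set I was chosen after seeing the data. The main fits had no block, so their p-values do not use pairing. The block alternatives added 1 term for the replicate number, shared by all 24 libraries, and no term for each pair. It was added because same-numbered KO and WT libraries of a time deviated together. The r was 0.142 to 0.332 over 9975 genes whose mean log2 CPM was 2 or more. Over all 15090 genes r was 0.054 to 0.231, and the lowest of these was under the limit of 0.1 set for pairing. Libraries of a group differed by more than sampling noise. Separate animals are not stated in the labels, so the p-values reflect the spread of these libraries alone, which may be technical.

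The 10 genes and all lists were chosen with earlier results of these data known. All 10 are named. Of each related list up to 4 called genes with the smallest p are named, or all where 5 or fewer were called. For each of the 10 the most similar other gene is named, clone and gene model names aside. A gene that this rule names is not reported here. Other genes are given as context after their values were seen.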

Additional observations from a re-analysis of the deposited data

How the results depend on the processing

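Averaged over the day, Aldh1a1, Aox1, Aox3, Adh1, Adh4 and Rbp4 kept their direction and their call under every alternative run, and Cyp26a1 in all but set I alone. Rdh7 rests on single libraries, and the cause was not tested. The sign of Aldh1a7, which never passed, turned to −0.089 with the replicate block and slope, −0.010 in set P alone and −0.094 without the 6 WT libraries of set I. In set I alone, on 12 libraries, 3 of the 10 genes were lower, against 2371 of all 13590. By edgeR 0 of the 10 were rhythmic there in KO and 0 in WT, and of all 13590 genes also 0 in each genotype. The replicate block gave 2 genes at ZT04, 3 at ZT12, 3 at ZT16 and 5 at ZT20, against 2.45%, 2.64%, 3.11% and 19% of all genes. With the GC and length slope added it gave 4 at ZT12, 2 at ZT16 and 2 at ZT20, against 3.19%, 3.76% and 12.6%. Besides that of Rdh16, neither fit changed an averaged call. With no filter on low counts, 4, 2, 4, 5, 5 and 2 genes passed from ZT04 to ZT24. The shares of all genes in that fit were 3.52%, 1.36%, 2.06%, 5%, 10.2% and 1.12%. Of the 10 genes 1 passed there for the rhythm difference and 1 for the interaction, as did 72 and 639 of all 30686 genes. DESeq2 as test gave 2 at ZT04, 2 at ZT08, 3 at ZT12, 3 at ZT16 and 4 at ZT20. The shares of all genes there were 2.31%, 1.42%, 2.76%, 2.85% and 8.19%. It called 4 of the 10 rhythmic in WT, against 1909 of all 15090 genes, with 1 rhythm difference and 1 interaction. Without the 6 WT libraries of set I, each WT group held 1 library, so calls of single times and of rhythms are not counted for that fit.

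Leaving out each library in turn gave 3 higher genes throughout and 4 to 5 lower. Counts ran from 0 to 2 at ZT04 and ZT08, 1 to 3 at ZT12, 0 to 3 at ZT16, 0 to 8 at ZT20 and 0 to 1 at ZT24. There was 1 rhythmic gene in KO throughout and 2 to 6 in WT, and 0 for the rhythm difference and the interaction by edgeR. Shares of all genes for the averaged calls and the rhythms were not counted in these fits. Over all genes, DESeq2 called 28 rhythm differences and 129 interactions where edgeR called 0. In all, 1827 genes were higher and 3180 lower in KO averaged over the day, against 3794 and 4104 with the replicate block, 3605 and 2631 with no filter, 977 and 900 in set P alone, and 1528 and 1366 without the 6 WT libraries of set I. With 2 libraries per group, precision at single times is limited.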
